A study of Homo sapiens with 10 samples.

Results

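S-adenosylmethionine (SAM) and polyamine metabolism was followed through 10 genes in the human melanoma line MDA-MB-435. The members were chosen by name, as all probe sets whose only platform gene symbol is MAT2A, MAT2B, AHCY, ODC1, AMD1, SRM, SMS, SAT1, OAZ1 or NNMT. This rule uses no measured value, but the members were chosen with earlier results of these data known. Counts, medians and ranks of members set beside all genes are therefore descriptions. The members are 16 of the 22215 probe sets other than controls on the Affymetrix hgu133a array. All 16 passed the filter on low values, a second-highest value over the arrays of at least 7.3. In that filtered set of 10176 probe sets, 6390 genes are named, 10 of them members. The arrays form 5 groups of 2, which the paper calls biological duplicates. They are cells stably transduced with integrin Beta4 (ITGB4), cells treated with hepatocyte growth factor (HGF) for 1, 6 or 24 h, and untreated cells. All groups are the same cell line under standard growth conditions. Cells transduced without ITGB4 are not among the groups, although the word Mock stands in the sample descriptions of the transduced cells, so transduction and ITGB4 cannot be told apart. Untreated cells from each time point are not among the groups either, so time in culture and HGF cannot be told apart.

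SAM is the methyl donor of the cell. Methionine adenosyltransferase makes it from methionine and ATP, methyltransferases use it, and the S-adenosylhomocysteine they leave behind is hydrolysed so that the cycle can continue. A smaller stream of SAM is decarboxylated and gives its aminopropyl groups to putrescine, which becomes spermidine and then spermine, small cations that growing cells need for translation. Ornithine decarboxylase, which makes putrescine, is induced by growth factors and is a textbook target of the transcription factor MYC, while acetylation marks polyamines for export and breakdown.

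Expression is given as the RMA log2 values that the authors deposited, which lie between 2.19 and 14.28 with array medians between 6.81 and 6.88. ITGB4 read 13.23 and 12.96 on its brightest probe set in transduced cells and between 6.54 and 6.86 on the other 8 arrays. Of 15 melanocytic markers on the array 13 passed the filter, against 3 of 14 epithelial, 3 of 12 fibroblast and 0 of 7 leukocyte and endothelial markers. Over the filtered probe sets, duplicates differed with an SD of 0.281 in transduced cells, 0.277, 0.179 and 0.259 after 1, 6 and 24 h with HGF and 0.195 in untreated cells. Each difference is one of mean log2 values, with a standard error (SE) from limma, which took the spread from all 10 arrays, and a gene is called at an adjusted p under 0.05. A gene stands for its probe set with the highest mean. Levels of different probe sets cannot be compared. With 2 arrays against 2, an exact permutation test of a single gene could not go below p = 0.333 (two-sided), and in bulk RNA a change per cell and a change in the share of cells cannot be told apart.

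The sequences of promoters of the called members are printed first, as context for the values. RefSeq windows of 300 bases, 250 before and 50 after the start of a transcript in GRCh38.p14, matched 9 of the 10 members, with 15 windows in all. The exception is NNMT. The windows were searched on both strands for the E-box CACGTG, the motif that MYC binds with MAX, and, chosen after the sequences were seen, for the TATA box letters TATAAA and the variant TATATAA, which overlaps TATAAA where another A follows. The E-box was in 7.26%, TATAAA in 11.5% and TATATAA in 2.57% of all 35116 windows. The stretches of 250 bases before the start are shown for MAT2A and AMD1, which rose after 6 h, and for SRM and SAT1, which moved in opposite directions between 6 and 24 h. Capitals mark a match. MAT2A (chr2:85538918-85539167, + strand) has TATAAA 32 bases before its start, AMD1 (chr6:110874535-110874784, + strand) has TATATAA 31 bases before its start, SRM (chr1:11060019-11060268, - strand) has an E-box 199 bases before its start, and the stretch of SAT1 (chrX:23782923-23783172, + strand) has none of these exact letters.
MAT2A: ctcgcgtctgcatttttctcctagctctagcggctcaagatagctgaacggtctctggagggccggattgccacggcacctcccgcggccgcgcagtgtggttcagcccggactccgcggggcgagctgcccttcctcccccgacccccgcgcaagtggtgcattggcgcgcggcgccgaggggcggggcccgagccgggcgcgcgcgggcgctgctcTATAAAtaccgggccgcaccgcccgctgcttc
AMD1: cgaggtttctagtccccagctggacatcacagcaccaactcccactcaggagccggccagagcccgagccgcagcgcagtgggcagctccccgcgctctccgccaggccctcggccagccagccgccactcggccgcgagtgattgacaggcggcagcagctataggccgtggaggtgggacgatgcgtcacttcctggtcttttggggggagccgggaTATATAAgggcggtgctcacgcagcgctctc
SRM: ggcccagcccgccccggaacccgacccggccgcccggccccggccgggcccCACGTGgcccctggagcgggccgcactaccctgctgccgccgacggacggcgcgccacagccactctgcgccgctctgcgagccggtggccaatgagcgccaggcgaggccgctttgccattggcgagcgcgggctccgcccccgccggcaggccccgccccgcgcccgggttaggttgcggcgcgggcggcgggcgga
SAT1: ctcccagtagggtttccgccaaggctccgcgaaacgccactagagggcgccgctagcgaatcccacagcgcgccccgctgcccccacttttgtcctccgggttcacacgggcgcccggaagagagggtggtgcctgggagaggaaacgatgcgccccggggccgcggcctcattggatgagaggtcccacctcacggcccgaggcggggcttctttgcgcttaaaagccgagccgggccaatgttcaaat
The ODC1 gene has 2 windows. The one at the downstream start holds 2 E-boxes, at 29 bases before and 5 bases after that start, shown with 12 bases on each side (chr2:10448024-10448053 and chr2:10447990-10448019, - strand).
ODC1 first E-box: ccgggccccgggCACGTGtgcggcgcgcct
ODC1 second E-box: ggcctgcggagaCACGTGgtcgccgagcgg
A match is a description of these letters, and the E-box was present both in SRM, which differed between 24 and 6 h, and in ODC1, which was not called in any comparison when all 10 arrays were fitted. TATAAA was also in the window of OAZ1, just after its start, and OAZ1 was not called in any comparison either. Of the 3 windows of AMD1, the one at chr6:110814367-110814666 holds none of these motifs. The E-box was in no window of MAT2A or AMD1, the members called at 6 h against untreated cells.

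The comparison of HGF 6 h with untreated cells asks which transcripts respond to some hours of stimulation. MAT2A and AMD1 were higher, and none of the 10 members was lower, where 3.74% of the 6390 genes were called higher and 2.72% lower. The median difference of the 10 members was 0.29, beside 0.01 over all 6390 genes. MAT2A, the catalytic subunit of the methionine adenosyltransferase found outside the adult liver, read 10.62 and 10.50 after 6 h, against 9.18 and 8.77 in untreated cells. Both HGF 6 h arrays lay above both untreated arrays. MAT2A rose by 1.59 (SE 0.32, adjusted p = 0.0191 from limma), which is 3.01-fold and the 3rd highest difference of the 6390 genes. Its second probe set gave 9.84 and 9.79 after 6 h, against 8.46 and 8.13 in untreated cells, a difference of 1.52 (SE 0.23, adjusted p = 0.00713 from limma). AMD1, the decarboxylase that turns SAM into the aminopropyl donor, read 10.14 and 10.10 after 6 h, against 9.46 and 9.31 in untreated cells. It rose by 0.73 (SE 0.15, adjusted p = 0.0199 from limma), or 1.66-fold. The second probe set of AMD1 differed by 0.75 (SE 0.15) and was also called, so the groups were apart on every probe set of both genes. By the probe sets with the highest mean, the calls of MAT2A and AMD1 at 6 h were lost when any one of the 2 untreated or 2 HGF 6 h arrays was left out, with limma's adjusted p between 0.0707 and 0.148 for MAT2A and between 0.0941 and 0.158 for AMD1. The differences then lay between 1.38 and 1.80 for MAT2A and between 0.66 and 0.81 for AMD1. A fit without moderation of the variances called neither (adjusted p = 0.157 and 0.107 from limma).

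**Figure D1:**
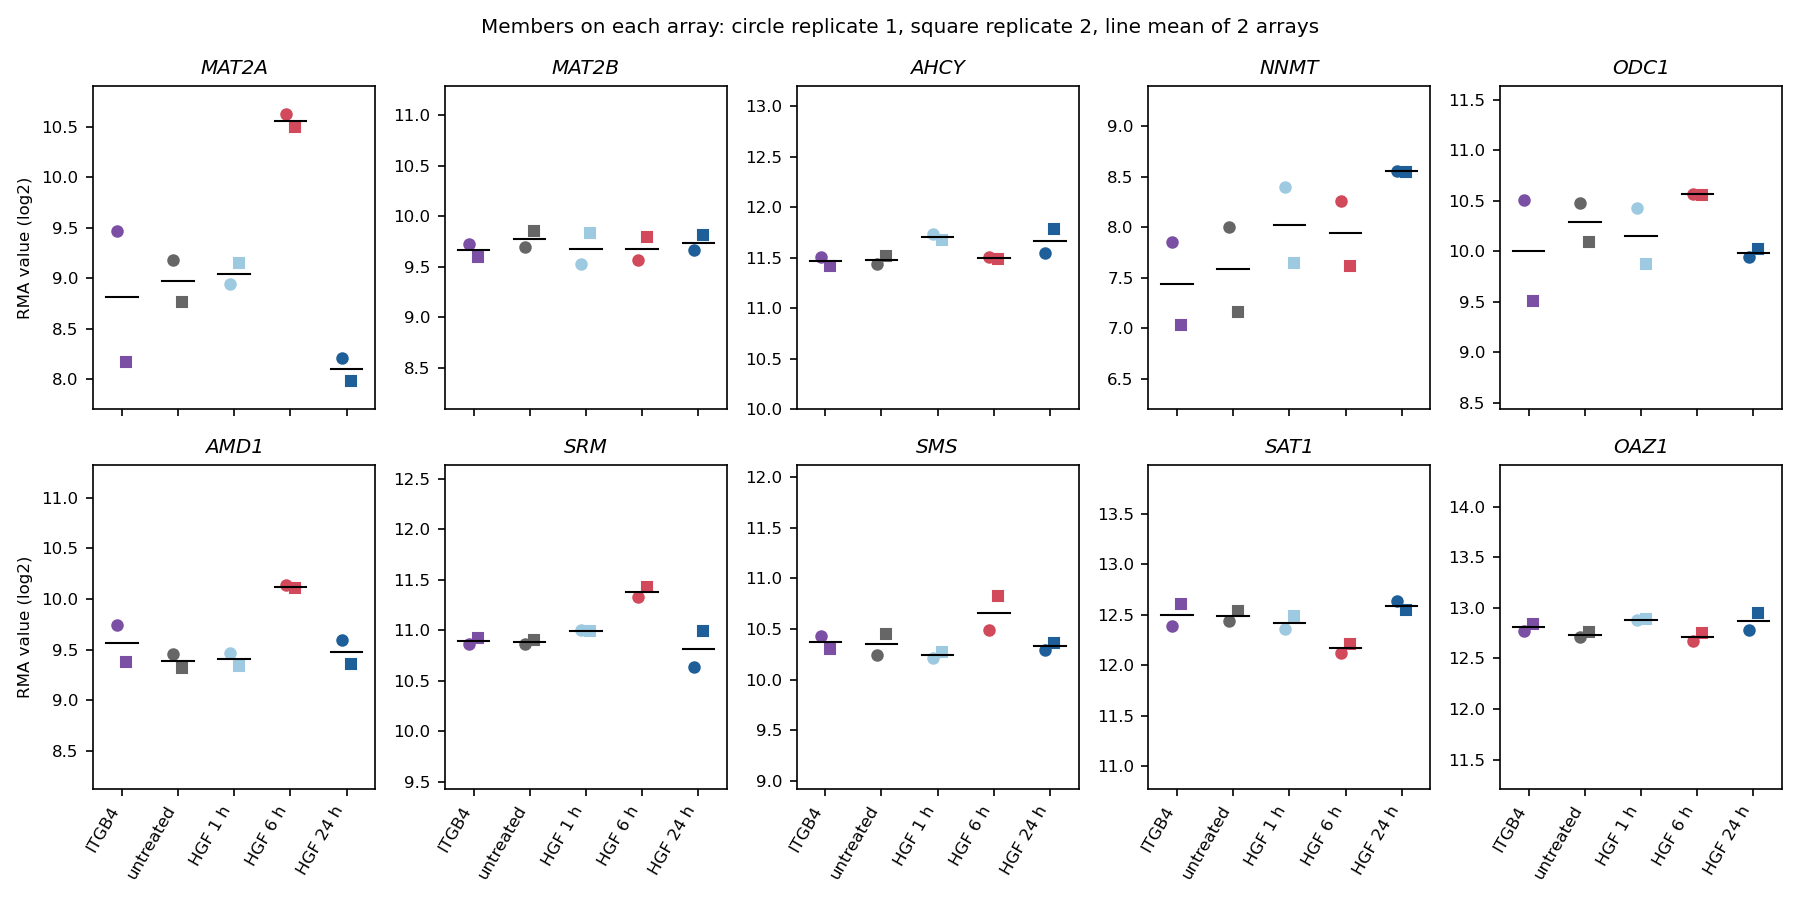
RMA values on the log2 scale (vertical axes, each spanning the same number of units) of the 10 members, by their probe set with the highest mean, in ITGB4-transduced cells, untreated cells and cells after 1, 6 and 24 h with HGF (horizontal axes). Circles and squares are the 2 arrays of a group and lines their means. MAT2A lies at 10.62 and 10.50 after 6 h and at 8.22 and 7.98 after 24 h, while MAT2B stays between 9.52 and 9.85 on all arrays.

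The remaining enzymes of polyamine synthesis did not pass the test at 6 h. SRM, the spermidine synthase, read 11.33 and 11.43 after 6 h, against 10.87 and 10.90 in untreated cells. These groups do not overlap, and the difference of 0.49 (SE 0.13) had an adjusted p of 0.0517 from limma, just short of the threshold. It passed under some other settings, for example with a trended and robust prior (adjusted p = 0.0373 from limma). Under others it did not, for example without a filter or without moderation (adjusted p = 0.0697 and 0.129 from limma). SRM was also not called when any one of the untreated or HGF 6 h arrays was left out, with differences between 0.44 and 0.54. SMS, the spermine synthase, read 10.49 and 10.83 after 6 h, against 10.25 and 10.45 in untreated cells (difference 0.31, SE 0.14, adjusted p = 0.214 from limma). ODC1, the ornithine decarboxylase, read 10.57 and 10.56 after 6 h, against 10.48 and 10.09 in untreated cells. Its difference of 0.28 had an SE of 0.28 and a 95% interval from -0.34 to 0.89, so that neither no change nor a rise like that of AMD1 lies outside it.

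SAT1, the acetyltransferase that starts polyamine breakdown, lay lower after 6 h on all 3 of its probe sets without passing the test. Its highest probe set read 12.12 and 12.21 after 6 h, against 12.44 and 12.54 in untreated cells. The differences on the 3 probe sets were -0.32, -0.37 and -0.42 (SE 0.12, 0.13 and 0.15), with adjusted p between 0.109 and 0.142 from limma. On each of them both HGF 6 h arrays lay below both untreated arrays. OAZ1, the antizyme that binds ODC1 and sends it to the proteasome, differed by -0.02 and 0.02 (SE 0.11 and 0.13) on its 2 probe sets.

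Of the 4 members of the methionine cycle, MAT2A was called at 6 h and the other 3 were not. MAT2B, the regulatory subunit of the same enzyme, read 9.57 and 9.79 after 6 h, against 9.70 and 9.85 in untreated cells. Its 95% interval ran from -0.41 to 0.22, which does not reach the difference of MAT2A. AHCY, which hydrolyses S-adenosylhomocysteine, read 11.51 and 11.48 after 6 h, against 11.43 and 11.51 in untreated cells (difference 0.02, SE 0.12). NNMT, which spends SAM to methylate nicotinamide, read 8.26 and 7.61 after 6 h, against 8.00 and 7.16 in untreated cells, so that its groups overlap.

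The comparison of HGF 24 h with HGF 6 h asks whether these levels persisted under continued treatment. MAT2A, AMD1 and SRM were lower after 24 h than after 6 h and SAT1 was higher, that is 3 members lower and 1 higher, where 12.3% of the 6390 genes were called lower and 7.42% higher. MAT2A read 8.22 and 7.98 after 24 h, against 10.62 and 10.50 after 6 h. MAT2A fell by 2.46 (SE 0.32, adjusted p = 0.00137 from limma), which is 5.51-fold and was the largest difference in either direction among the 6390 genes in this fit. The second probe set fell by 2.12 (SE 0.23, adjusted p = 9.52e-04 from limma). The MAT2A call held whichever array was left out, with an adjusted p of at most 0.0232 from limma. Without moderation of the variances it was lost (adjusted p = 0.0528), as were those of AMD1, SRM and SAT1 (0.0749, 0.0592 and 0.0672).

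AMD1 read 9.60 and 9.36 after 24 h, against 10.14 and 10.10 after 6 h, and fell by 0.64 (SE 0.15, adjusted p = 0.0142 from limma). SRM read 10.64 and 10.99 after 24 h, against 11.33 and 11.43 after 6 h, and fell by 0.56 (SE 0.13, adjusted p = 0.0155 from limma). Both genes were thus below their 6 h values on both arrays. SMS and ODC1 differed in the same direction, by -0.33 and -0.58 (SE 0.14 and 0.28), without passing the test (adjusted p = 0.127 and 0.172 from limma). The ODC1 difference was called with both ITGB4 arrays left out, or either of them, the arrays on which its replicates lie apart. SAT1 read 12.63 and 12.54 after 24 h, against 12.12 and 12.21 after 6 h. It rose by 0.42 (SE 0.12, adjusted p = 0.0364 from limma), and its other probe sets rose by 0.52 and 0.59 and were also called. The calls were less firm than that of MAT2A. AMD1 lost its call without HGF 6 h replicate 1, HGF 6 h replicate 2 or HGF 24 h replicate 2 (adjusted p = 0.0828, 0.0871 and 0.0776), SRM without either HGF 6 h array or HGF 24 h replicate 1 (0.0634, 0.120 and 0.0999), and SAT1 when any one of the untreated, HGF 6 h or HGF 24 h arrays was left out (0.0586 to 0.183).

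**Figure D2:**
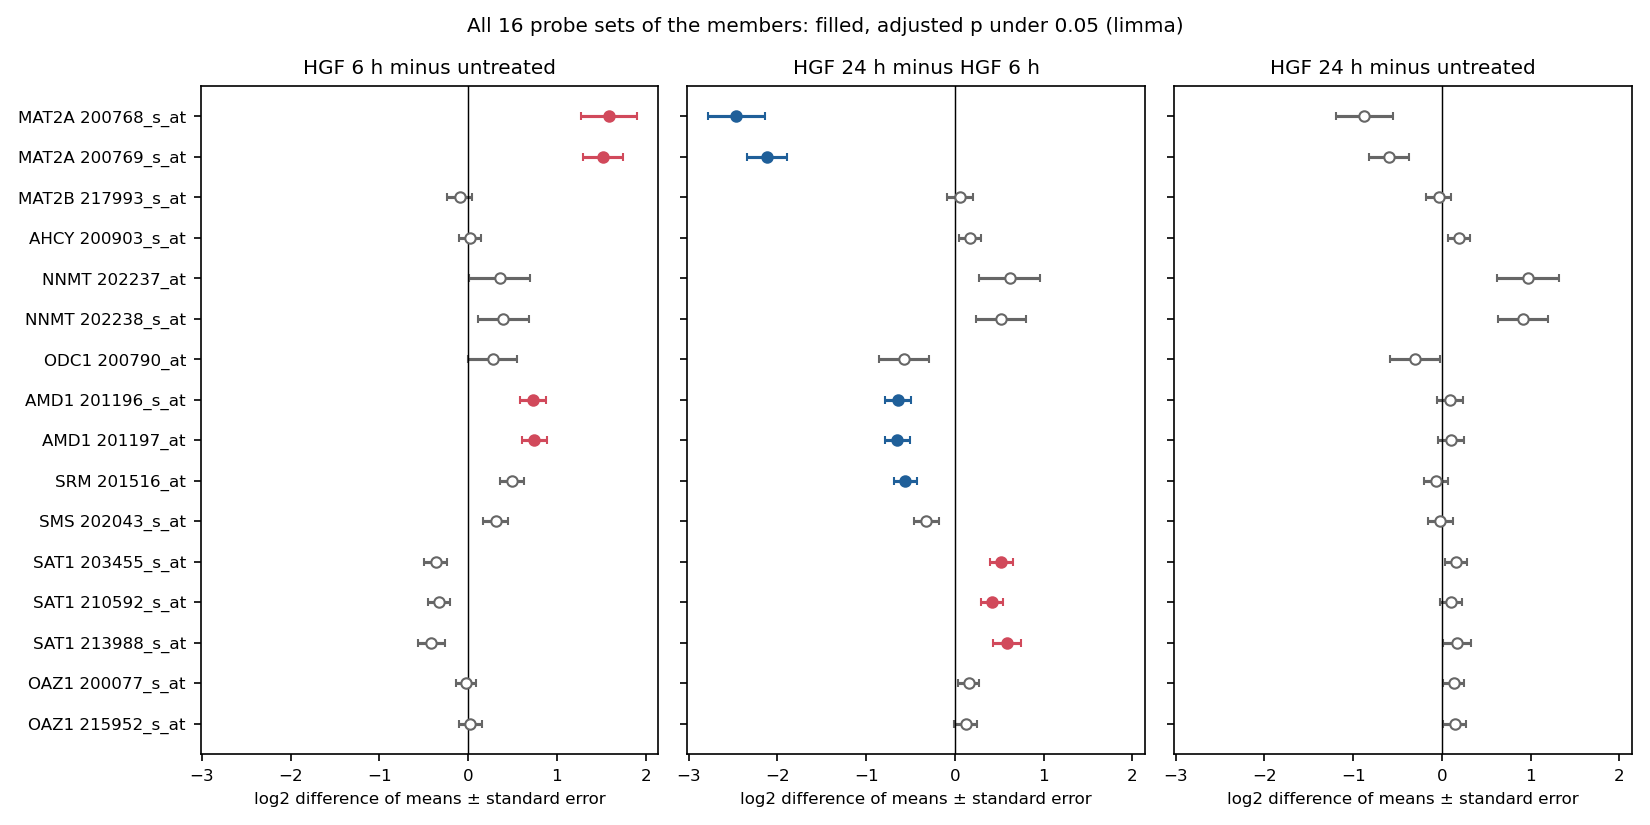
Log2 differences of group means (horizontal axes, bars are standard errors) for all 16 probe sets of the members (vertical axis), for HGF 6 h minus untreated, HGF 24 h minus HGF 6 h and HGF 24 h minus untreated. Filled points had an adjusted p under 0.05 in limma. The MAT2A and AMD1 probe sets are called at 6 h, those of MAT2A, AMD1, SRM and SAT1 between 24 and 6 h, and none against untreated cells at 24 h.

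Against untreated cells, HGF 24 h left 0 of the 10 members called by limma, where 0% of the 6390 genes were called, and 2 members, MAT2A and NNMT, had an unadjusted p under 0.05, as had 10.6% of the 6390 genes. The fit without moderation also called 0. MAT2A lay at 8.22 and 7.98 after 24 h, against 9.18 and 8.77 in untreated cells, so that both HGF 24 h arrays were below both untreated arrays (difference -0.87, SE 0.32, adjusted p = 0.403 from limma). Its second probe set differed by -0.60 (SE 0.23). NNMT read 8.56 and 8.55 after 24 h, against 8.00 and 7.16 in untreated cells (difference 0.97, SE 0.35, adjusted p = 0.400 from limma). The second NNMT probe set differed by 0.91 (SE 0.28), from an untreated mean of 6.90 that lies under the minimum of the filter, so its size is not exact. NNMT was the member whose replicates differed in the most groups. Replicate 1 lay above replicate 2 by 0.82 in transduced cells, 0.76 and 0.65 after 1 and 6 h and 0.84 in untreated cells, and by 0.01 after 24 h. The difference at 24 h was 0.55 without untreated replicate 2 and 1.39 without untreated replicate 1. AMD1, SRM and SMS differed from untreated cells by 0.09, -0.07 and -0.02 at 24 h (SE 0.15, 0.13 and 0.14).

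After 1 h with HGF, 0 of the 10 members were called by limma, where 5.88% of the 6390 genes were, and 0 had an unadjusted p under 0.05. The fit without moderation also called 0. MAT2A read 8.94 and 9.15 after 1 h, against 9.18 and 8.77 in untreated cells, and AMD1 read 9.47 and 9.34 after 1 h, against 9.46 and 9.31 in untreated cells. Both pairs of groups overlap on these probe sets. The 95% intervals of their differences ran from -0.63 to 0.77 for MAT2A and from -0.31 to 0.34 for AMD1. They leave out the differences seen at 6 h. On the second AMD1 probe set both 1 h arrays, at 8.95 and 9.07, lay below the untreated arrays, at 9.09 and 9.33. That difference was -0.20 (SE 0.15, adjusted p = 0.403 from limma). AHCY read 11.73 and 11.67 after 1 h, against 11.43 and 11.51 in untreated cells (difference 0.23, SE 0.12, adjusted p = 0.252 from limma).

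Compared directly, HGF 6 h was higher than HGF 1 h for 2 members, MAT2A and AMD1, and lower for 0, where 11.7% of the 6390 genes were called higher and 7.4% lower. MAT2A was higher by 1.52 (SE 0.32, adjusted p = 0.0116 from limma) and AMD1 by 0.72 (SE 0.15, adjusted p = 0.0111 from limma), with the second probe sets at 1.56 and 0.94. SRM and SMS differed by 0.38 and 0.41 (SE 0.13 and 0.14), with adjusted p of 0.0677 and 0.0619 from limma. Of 11 alternatives other than leaving out a single array, 1 called SRM, scaling by cyclic loess. For SMS 2 of the 11 did, cyclic loess and the replicate number as a block. SRM was also called without either HGF 24 h array, and SMS with no single array left out. Without HGF 1 h replicate 1 or either HGF 6 h array, MAT2A and AMD1 were not called (adjusted p between 0.0528 and 0.0824), nor were they without moderation (0.110 and 0.0742). HGF 24 h and HGF 1 h differed for 0 members by limma, where 0% of the 6390 genes were called, with MAT2A at an unadjusted p of 0.0126 (difference -0.95, SE 0.32, adjusted p = 0.227). MAT2A was called there with either or both ITGB4 arrays left out (adjusted p = 0.0464, 0.0472 and 0.0464).

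In cells transduced with ITGB4, 0 of the 10 members were called by limma, where 0.0156% of the 6390 genes were, and 0 had an unadjusted p under 0.05. The fit without moderation also called 0. The replicates themselves lay apart. MAT2A read 9.47 and 8.17 in transduced cells, against 9.18 and 8.77 in untreated cells, and ODC1 read 10.51 and 9.51 in transduced cells, against 10.48 and 10.09 in untreated cells. The gap of 1.30 between the transduced replicates of MAT2A was the widest gap between replicates of any member, and those arrays enter the spread by which all comparisons of MAT2A are judged. The second probe set of MAT2A differed by 0.28 (SE 0.23) between transduced and untreated cells, where the first differed by -0.15 (SE 0.32). With both transduced arrays left out, a setting chosen after this gap was seen, the adjusted p of MAT2A at 6 h against untreated cells was 0.00164. SRM, SMS and OAZ1 differed by 0.01, 0.02 and 0.07 between transduced and untreated cells (SE 0.13, 0.14 and 0.12), and their 95% intervals lay within -0.29 and 0.33.

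Among the members, SAT1 ran against MAT2A across arrays. Of all pairs of members, this one had the most negative Pearson's r over the 10 arrays, at -0.94. The relation was not particular to MAT2A, since SAT1 also ran against SRM, AMD1 and ODC1, with r of -0.85, -0.83 and -0.81. The HGF 6 h arrays hold the 2 highest values of MAT2A and the 2 lowest of SAT1 and stand apart from the others. Over the other 8 arrays, of 4 groups, Pearson's r was -0.805 and Spearman's rho -0.762, as a description of arrays that share groups and normalization. The 2 transduced replicates followed the same order, with MAT2A at 9.47 and SAT1 at 12.38 on replicate 1, and MAT2A at 8.17 and SAT1 at 12.60 on replicate 2. So did the untreated and the HGF 6 h replicates, but those of HGF 1 h and HGF 24 h did not. At 1 h both genes were higher on replicate 2, MAT2A at 9.15 against 8.94 and SAT1 at 12.48 against 12.36. At 24 h both were higher on replicate 1, MAT2A at 8.22 against 7.98 and SAT1 at 12.63 against 12.54. The order of the replicates depended on the probe set. The second MAT2A probe set reversed it at 1 h, with 8.32 on replicate 1 and 8.19 on replicate 2. Other SAT1 probe sets reversed it at 1 h (10.93 and 10.77), 6 h (11.68 and 11.52) and 24 h (12.15 and 12.22). In each case the remaining SAT1 probe set kept the order.

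**Figure D3:**
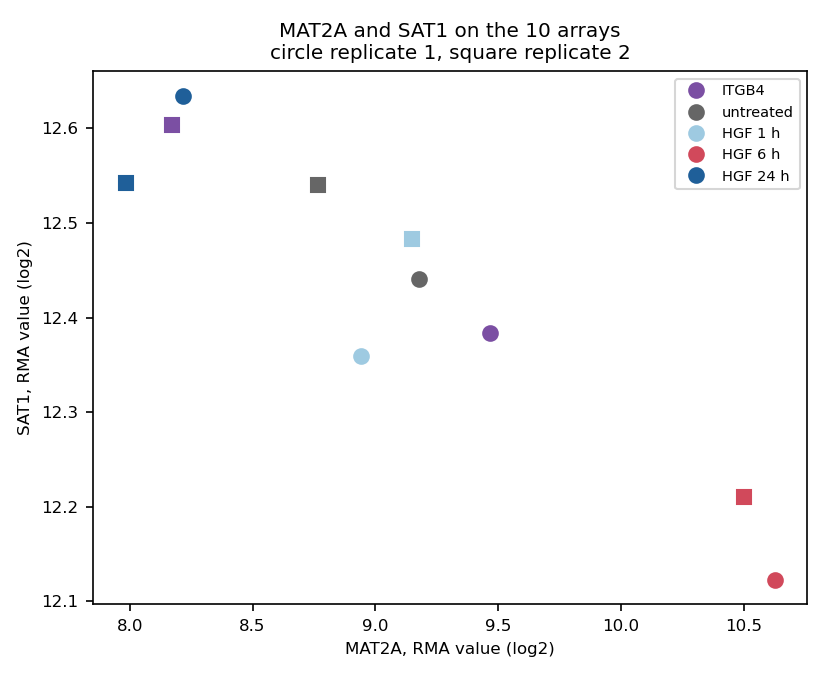
RMA values on the log2 scale of MAT2A (horizontal axis) and SAT1 (vertical axis) on the 10 arrays, coloured by group, with circles for replicate 1 and squares for replicate 2. The HGF 6 h arrays lie at the lower right, with SAT1 at 12.12 and 12.21, and the HGF 24 h arrays at the upper left, with SAT1 at 12.63 and 12.54.

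The genes whose probe sets followed the called members most closely over the 10 arrays were taken by Pearson's r. For MAT2A they were NFYA, a subunit of the CCAAT-binding factor NF-Y, the antiviral zinc finger protein ZC3HAV1 and the translation initiation factor EIF5, with r of 0.98, 0.98 and 0.97. For AMD1 they were the membrane proteins TMEM158 and TM4SF1 and the tocopherol transfer protein-like TTPAL, with r of 0.96 each. The HGF 6 h arrays hold the highest values of MAT2A and AMD1 and weigh heavily in these r.

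The wider pathways held 67 further genes, of which 56 are on the array with a probe set of their own and 41 passed the filter. After 6 h with HGF 1 of the 41 was higher and 1 lower than in untreated cells, near the 3.74% higher and 2.72% lower over all 6390 genes. The median difference was 0.11 beside 0.01 over all genes. DOHH, which completes the hypusine residue that spermidine donates to the translation factor EIF5A, read 9.05 and 9.32 after 6 h, against 8.52 and 8.51 in untreated cells. It rose by 0.67 (SE 0.16, adjusted p = 0.0351 from limma). MTHFD2, a mitochondrial folate enzyme, read 10.20 and 9.89 after 6 h, against 10.71 and 10.78 in untreated cells, and fell by 0.70 (SE 0.13, adjusted p = 0.0147 from limma). Of 16 SAM-dependent methyltransferases 0 were called by limma at 6 h and 6 had an unadjusted p under 0.05, as had 23.5% of the 6390 genes, with a median of 0.22. Of the 11 genes listed for the methionine and folate cycles, 0 were higher and 1, MTHFD2, was lower, with a median of -0.30. This list also takes in CTH and the AHCY relatives AHCYL1 and AHCYL2. CTH differed by -1.05 (SE 0.28, adjusted p = 0.0528 from limma) and was not counted as called, but 1 of its 2 kept probe sets was called. The HGF 6 h mean of CTH lay under the minimum of the filter. The call of DOHH was lost when any one of the 2 untreated or 2 HGF 6 h arrays was left out (adjusted p between 0.0878 and 0.284 from limma), and that of MTHFD2 without either untreated array or HGF 6 h replicate 2 (between 0.0914 and 0.173). Without moderation both were lost (0.139 for DOHH and 0.0704 for MTHFD2), and DOHH also with p-values adjusted over the 4 comparisons with untreated cells together (0.0654).

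Between 24 and 6 h, 6 of the 41 genes were higher and 11 lower, where 7.42% of the 6390 genes were called higher and 12.3% lower. The list of the methionine and folate cycles had 5 higher and 1 lower of 11. CTH and the AHCY relatives AHCYL1 and AHCYL2, which this list also takes in, are among the 5 higher. CTH, which makes cysteine from cystathionine, was higher by 1.25 (SE 0.28), MTHFD2 by 1.05 (SE 0.13), AHCYL2, a relative of AHCY, by 0.68 (SE 0.12) and SHMT2, the mitochondrial serine hydroxymethyltransferase, by 0.53 (SE 0.14), called on 2 of its 3 probe sets. Their adjusted p lay between 0.00137 and 0.0240 from limma. The HGF 6 h means of CTH and AHCYL2 lie under the minimum of the filter, so the sizes of their differences are not exact. MTRR, the reductase that keeps methionine synthase active, was lower by 0.73 after 24 h (log2 difference -0.73, SE 0.21, adjusted p = 0.0310 from limma). Of 5 methionine salvage genes, which recycle the methylthioadenosine that polyamine synthesis releases, 2 were lower and 0 higher. These were ADI1, at -0.88, and the phosphorylase MTAP, at -0.72 (SE 0.20 and 0.16), MTAP on 1 of its 2 kept probe sets and with an HGF 24 h mean under the minimum of the filter. Of 6 genes of polyamine regulation, breakdown and uptake, 2 were lower and 1 higher. ATP13A3, a polyamine transporter, read 8.18 and 8.10 after 24 h, against 9.15 and 9.09 after 6 h, and fell by 0.98 (SE 0.22, adjusted p = 0.0118 from limma). Of the 16 methyltransferases 5 were lower and 0 higher, with a median of -0.34, and of 3 hypusine genes 1, DOHH, was lower. Of the 8 genes named with the largest differences, MTHFD2 and AHCYL2 stayed called whichever array was left out. CTH lost its call without HGF 6 h replicate 2 or HGF 24 h replicate 1, ADI1 and MTAP without either HGF 6 h array or HGF 24 h replicate 1, and ATP13A3, MTRR and SHMT2 when any one of the 4 arrays compared was left out (adjusted p between 0.0522 and 0.177 from limma over these 6 genes). Without moderation the same 6 lost their calls (adjusted p between 0.0803 and 0.147).

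Between 6 and 1 h, 4 of the 41 genes were higher and 6 lower, where 11.7% of the 6390 genes were called higher and 7.4% lower. ATP13A3 was higher by 1.01 (SE 0.22) and MTRR by 0.75 (SE 0.21), and the methyltransferases PRMT3 and DIMT1 were higher by 0.54 and 0.40 (SE 0.17 and 0.12), PRMT3 with an HGF 1 h mean under the minimum of the filter. CTH, MTHFD2, AHCYL2 and the transaminase GOT1 differed by -1.22, -0.71, -0.64 and -0.60 (SE 0.28, 0.13, 0.12 and 0.17). All 8 had an adjusted p of at most 0.0481 from limma. Leaving out replicate 1 of HGF 1 h, or replicate 2 of HGF 6 h, ended the call of each of the 8 (adjusted p between 0.0534 and 0.261). Without replicate 1 of HGF 6 h, ATP13A3, MTRR, PRMT3, DIMT1, AHCYL2 and GOT1 lost their calls as well. MTRR, PRMT3 and DIMT1 also lost theirs without replicate 2 of HGF 1 h. PRMT3 and DIMT1 lost the call without either untreated array too, and PRMT3 without either HGF 24 h array. Without moderation 7 of the 8 were lost (adjusted p between 0.0533 and 0.148), the exception being AHCYL2.

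**Figure D4:**
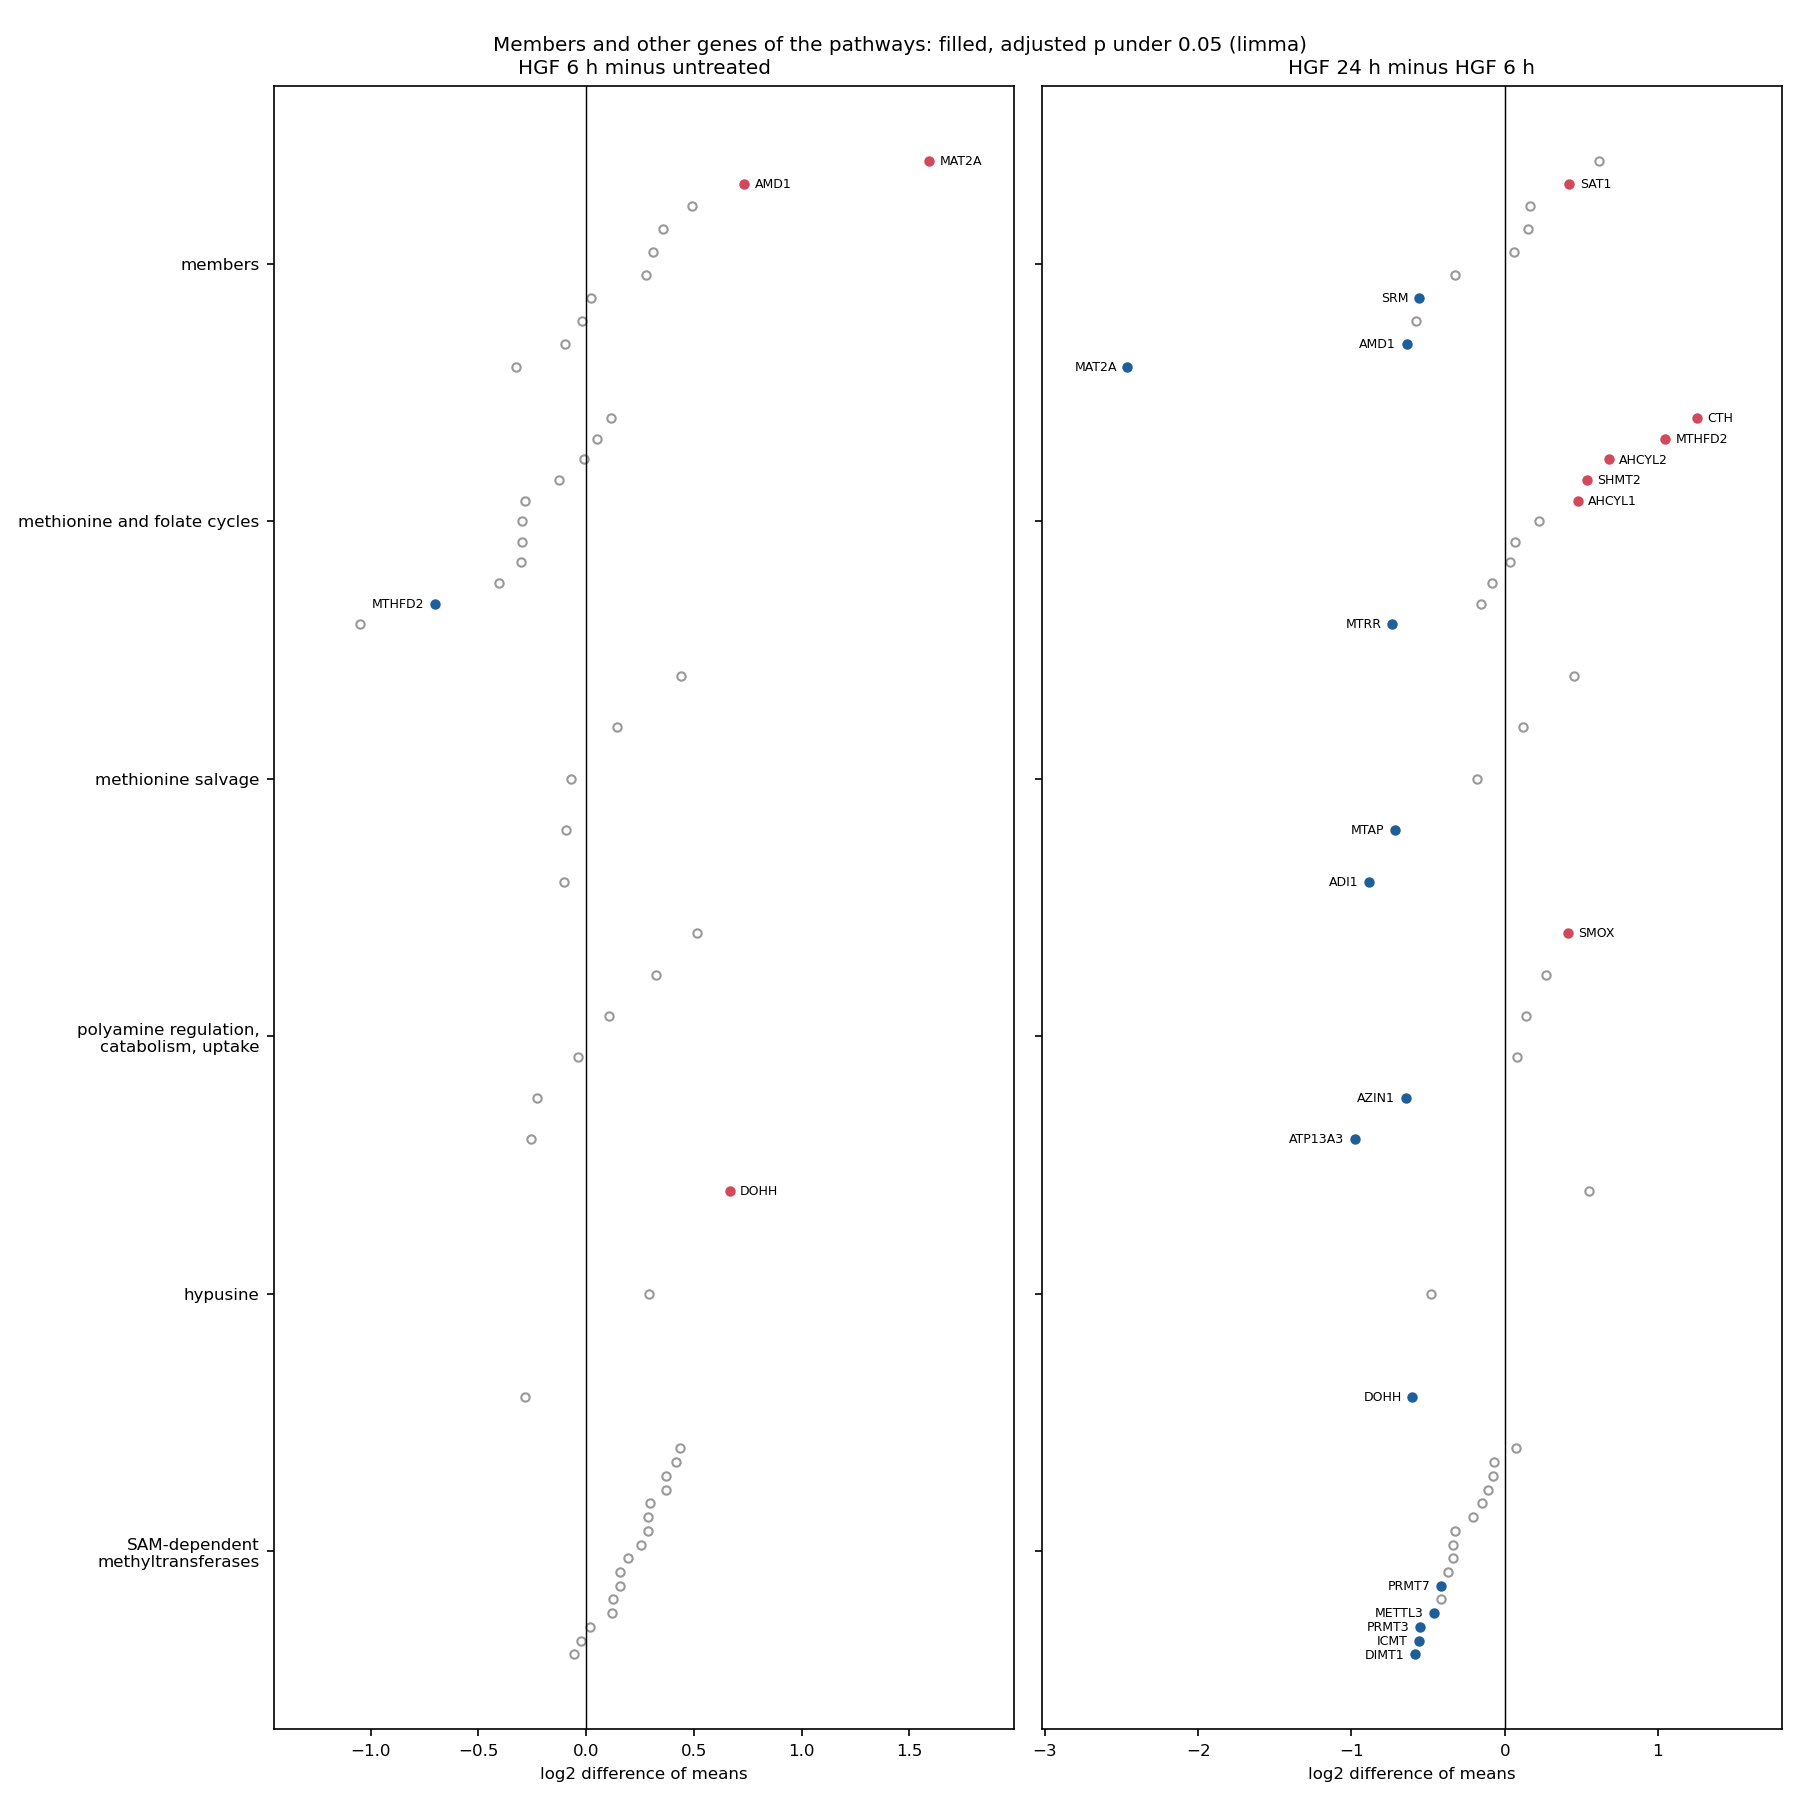
Log2 differences of group means (horizontal axes) for the 10 members and for 5 lists of other pathway genes (vertical axis), for HGF 6 h minus untreated and HGF 24 h minus HGF 6 h, whose axes differ in scale. Each point is a gene by its probe set with the highest mean, and filled, named points had an adjusted p under 0.05 in limma. MAT2A lies at 1.59 on the left panel and at -2.46 on the right, beyond every other gene of the lists.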

How the data were processed

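Transcripts were measured on 10 Affymetrix arrays, 2 in each of 5 groups. Per the labels and the paper's methods, the authors used RMA on the probe data and deposited its log2 values, which are normalized between arrays. The submitters' processing notes also name affy. Versions are not given in the sources used here. Their exclusion of probe sets without presence calls is not part of the deposited values. In its place, probe sets other than the 68 controls were kept when their second-highest value was at least 7.3. Symbols came from the platform annotation, in which 19065 probe sets have a single symbol.

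In R 4.3.3 with limma 3.58.1, a mean per group was fitted over all 10 arrays (5 residual degrees of freedom), and p-values were adjusted by Benjamini and Hochberg over 10176 probe sets in each of 7 comparisons. P-values measure the spread between these arrays. The fit was tested on simulated data. The members and lists were chosen with earlier results of these data known, and the lists were written from general knowledge. The other pathway genes named are, in each comparison, up to 4 called genes in each direction by size of difference. Where none was called, the gene with the largest difference is named. For each member called against untreated cells, the 3 most similar genes are given. Alternatives were other filters, scalings, priors, adjustments, a fold threshold, the mean of a gene's probe sets, the replicate number as a block and leaving out arrays. The Illumina arrays of the same RNA were not analysed here. The number of arrays limits the precision.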

Additional observations from a re-analysis of the deposited data

Results flagged for a closer look

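The direct comparisons between HGF time points test whether the effect at one time differs from the effect at another, and 6 member differences passed limma's test there. Between 6 and 1 h these were MAT2A at 1.52 and AMD1 at 0.72 on the log2 scale. Between 24 and 6 h they were MAT2A at -2.46, AMD1 at -0.64, SRM at -0.56 and SAT1 at 0.42. Both arrays of a group lay on the same side of both arrays of the other in all 6. All 6 rest on the same 2 HGF 6 h arrays, as do the calls at 6 h against untreated cells, so they are not separate findings. Groups of 2 arrays are too small for a search for outlying arrays.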

How the results depend on the processing

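Of the member differences with an unadjusted p under 0.05 and the other named pathway genes, 0 changed direction under any alternative tried. The number of members called was less stable. Without moderation of the variances, limma called 0 members at 6 h against untreated cells. It also called 0 between 6 and 1 h and 0 between 24 and 6 h. Over all probe sets it called 54, 185 and 438 in these comparisons. The Mulcom statistic with m = 0 leaves the variances unmoderated too. Mulcom, however, estimates false discovery by permutation and tunes its thresholds to the data, so its calls were not reproduced here. Cyclic loess called 4 members between 6 and 1 h, a fold threshold of 0.58 on the log2 scale left 2 between 24 and 6 h, and the spread of the 2 compared groups alone called 1 between 24 and 1 h, as did leaving out both ITGB4 arrays, chosen after seeing the data. Leaving out each array in turn gave 0 to 3 members at 6 h, 0 to 3 between 6 and 1 h, 1 to 5 between 24 and 6 h and 0 to 1 between 24 and 1 h, and 0 at 1 h, at 24 h and in transduced cells. Where this left a group with 1 array, that array is assumed to vary like the other groups. The other pathway genes called then numbered 0 to 4 at 6 h, 0 to 11 between 6 and 1 h and 3 to 18 between 24 and 6 h.

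The labels do not say what a replicate number marks. Deviations of same-numbered arrays correlated over 0.1 in 8 of 10 pairs of groups, from -0.14 to 0.461, and the numbers were not taken as a pairing. With the number as a replicate block, 3 members were called at 6 h against untreated cells, 3 between 6 and 1 h and 5 between 24 and 6 h, against 2, 2 and 4 without it. The added calls were SRM (adjusted p = 0.0377), SMS (0.0474) and NNMT (0.0395). Differences whose mean lies near or under 7.3 have inexact sizes.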

Other observations

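In the comparisons in which limma called none of the 41 other pathway genes, the largest differences were those of MTRR after 1 h with HGF, at -0.63 (SE 0.21, adjusted p = 0.0908), ADI1 after 24 h, at -0.74 (SE 0.20, adjusted p = 0.346), CTH in transduced cells, at -0.46 (SE 0.28, adjusted p = 0.966), each against untreated cells, and ICMT, which methylates the ends of prenylated proteins, between 24 and 1 h, at -0.50 (SE 0.17, adjusted p = 0.235). An unadjusted p under 0.05 was found for 8 of the 41 genes after 1 h, 6 after 24 h, 1 in transduced cells and 6 between 24 and 1 h, where 27.2%, 10.6%, 4.76% and 15.6% of the 6390 genes had one. MTRR read 8.79 and 8.80 in untreated cells, 8.22 and 8.10 at 1 h, 8.96 and 8.87 at 6 h, and 8.14 and 8.22 at 24 h with HGF. The HGF 1 h difference of MTRR was called with either or both ITGB4 arrays left out (adjusted p between 0.0107 and 0.0108 from limma). Its HGF 1 h and 24 h arrays lay below the untreated arrays and its 6 h arrays above them.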
